A study of Mus musculus with 6 samples.

Results

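The let-7 and miR-98 family was described in 6 small RNA libraries labelled Mes23.5, a hybrid line of mouse neuroblastoma and rat midbrain cells used as a stand-in for dopamine neurons. Every library, in both groups, carried the label of 24 h with LPS, a component of bacterial walls that provokes inflammation. The 3 SIX2_EV libraries came from cells that received extracellular vesicles of microglia overexpressing SIX2, a transcription factor. The 3 control_EV libraries received vesicles of control microglia. The growth protocol speaks of BV2, a microglial line, so the cell is given as labelled. Separate cultures are not stated for the 3 libraries of a group. The spread that p-values measure may thus be technical. Family members were all rows of the table named let-7a to let-7k or miR-98, in either arm and with any isoform suffix. Rows that shared both name and sequence were summed. This gave 19 features from 21 rows, out of 756 features in the whole table, and the 19 held 18 distinct sequences.

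A let-7 miRNA is cut from a hairpin precursor, and 1 arm of the hairpin, here the 5p arm, is usually loaded into the Argonaute complex while the other arm (3p) is mostly degraded. The loaded strand pairs with target mRNAs mainly through its seed, bases 2 to 8, so members with the same seed have overlapping targets. The family is known for restraining proliferation, for accumulating as cells differentiate, and for being blocked by the RNA-binding protein LIN28 in undifferentiated cells. In neural tissue it is abundant and its level increases as neurons mature.

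The members share their seed and differ by few bases, so the 5p sequences as deposited are shown first. Capitals mark the seed.
let-7f-5p: tGAGGTAGtagattgtatagtt
let-7a-5p: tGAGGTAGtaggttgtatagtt
let-7i-5p: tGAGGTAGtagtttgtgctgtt
let-7g-5p: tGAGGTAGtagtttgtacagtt
let-7b-5p: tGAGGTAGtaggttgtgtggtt
let-7c-5p: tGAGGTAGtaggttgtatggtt
let-7d-5p: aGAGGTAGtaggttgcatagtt
let-7e-5p: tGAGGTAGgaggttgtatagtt
miR-98-5p: tGAGGTAGtaagttgtattgtt
let-7j-named read: tGAGGTAGtagtttgtgctgtta
All 11 features of the 5p arm carried the seed GAGGTAG. Outside the family, 0 of 756 features had this seed. Between 1 and 6 substitutions separated the 9 sequences of 22 bases (36 pairs), and 4 pairs differed by 1 base. Counted from 1 at the 5′ end of let-7a-5p, let-7c-5p differs by A19G, let-7e-5p by T9G and let-7f-5p by G12A, while let-7i-5p differs by G12T, A17G, T18C and A19T. A single sequencing error or a mapping tolerance of 1 mismatch can therefore move a read from 1 member to another, with mapping settings not given in the sources used here. Of the 19 features, 18 carried rat names, but 10 of 11 in the 5p arm and 3 of 8 in the 3p arm were identical to a mature mouse sequence in RefSeq (GRCm38.p6). The prefix therefore does not tell rat from mouse reads.

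Names and sequences disagreed for a pair of members. The let-7a-5p sequence was listed at 3 loci with equal counts, and 1 of the 3, the let-7c-2 hairpin, gave its rows the name let-7c-5p with the change G19A. By name, 33.3% of the let-7a-5p reads in each library thus stood under let-7c-5p. Levels and shares below are given per sequence, so that let-7a-5p holds all 3 rows, while the fitted features keep their deposited names. The let-7j-named read was the sole member with a mouse name. It equals let-7i-5p in its first 22 bases, followed by an A, and it occurs in no RefSeq hairpin of the mouse. The RefSeq sequence of let-7j has another seed, with capitals again marking bases 2 to 8.
mmu-let-7j: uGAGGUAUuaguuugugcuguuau
The read differs from RefSeq let-7j by T8G, inside the seed, and from the let-7i hairpin by G23A at its last base. From its 5′ end, the read matches the let-7j hairpin it was deposited with (chromosome 3, plus strand, 139734010 to 139734131) up to base 7, before T8G. It is thus 1 substitution from either RefSeq sequence and shares its seed with let-7i-5p, so it is called the let-7j-named read here.

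The hairpins lay at known let-7 loci, given at the deposited positions of a build that is not named. On chromosome 13 (minus strand), let-7d lay at 48689486 to 48689591, let-7f-1 at 48691297 to 48691405 and let-7a-1 at 48691647 to 48691750. In GRCm38 annotation (RefSeq hairpins, GENCODE M21 genes) these 3 hairpins overlap an exon of the non-coding RNA 6720427I07Rik. On chromosome 15 (plus strand), let-7c-2 at 85590799 to 85590902 and let-7b at 85591517 to 85591616 are annotated as overlapping an exon of the non-coding RNA Lncppara. On the X chromosome (plus strand), let-7f-2 at 150695342 to 150695424 and miR-98 at 150696209 to 150696322 are annotated in an intron of Huwe1, a ubiquitin ligase. On chromosome 9 (plus strand), let-7g at 106056016 to 106056152 is annotated in an intron of Wdr82, while let-7a-2 lay at 41447998 to 41448147 and is annotated in introns of the non-coding RNAs 3110039I08Rik and Gm49317. On chromosome 16 (plus strand), let-7c-1 lay at 77396540 to 77396647, annotated in an intron of the non-coding Mir99ahg and, on the other strand, of Gm11146. On chromosome 17 (plus strand), let-7e at 18050608 to 18050716 is annotated in an intron of Spaca6. On chromosome 10 (minus strand), let-7i lay at 122821506 to 122821643 and overlaps an exon of the pseudogene D630033A02Rik. Since let-7a-5p, let-7c-5p and let-7f-5p are each found in 2 RefSeq hairpins, their reads cannot be assigned to 1 locus.

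The libraries held 179621, 232635 and 184208 deposited reads in the SIX2_EV group against 257628, 253037 and 421279 in the control_EV group. Reads with a mature miRNA name and a mouse hairpin made up 6.78% to 32.6% of them in the SIX2_EV group against 31.5% to 70.8% in the control_EV group. Of 7 neuronal marker miRNAs, 5 were listed, with a summed level of 2039 to 3014 CPM in the SIX2_EV group against 2285 to 3288 CPM in the control_EV group. miR-124-3p and miR-9-3p were not found under these names, and the name miR-9a-3p was not searched. All 5 myeloid markers were listed, at a summed 30589 to 32357 and 24579 to 47055 CPM, and the red blood cell markers miR-451-5p, miR-144-3p and miR-486-5p at 14505 to 22218 and 9843 to 31635 CPM. In each marker list the groups overlapped. The part of other cells or of the medium in the family's reads was not tested. In such bulk libraries, fewer cells of a type and less RNA per cell cannot be told apart.

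The first comparison asked how much of each library the family took. In SIX2_EV, 2083, 1361 and 5190 reads were family reads against 6002, 10017 and 27494. Of all deposited reads the family made up 1.16% (95% interval by Wilson's method, 1.11 to 1.21), 0.585% (0.555 to 0.617) and 2.82% (2.74 to 2.89) in the SIX2_EV group, against 2.33% (2.27 to 2.39), 3.96% (3.88 to 4.04) and 6.53% (6.45 to 6.60) in the control_EV group. The intervals treat reads as independent draws and leave out the spread between libraries. Since no molecular identifiers mark independent molecules, they may be too narrow even for counting error. The means were 1.52% ± 1.16 and 4.27% ± 2.12 (SD, n = 3), a difference of -2.75 percentage points, or -1.62 without control_EV replicate 3. The groups overlapped, since the third SIX2_EV library lay above the first control_EV library. Between the lowest and the highest library the share differed 11.2-fold.

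Among reads with a mature miRNA name the family's share varied little. It was 8.35%, 8.62% and 8.63% in the SIX2_EV group against 7.40%, 6.98% and 9.21% in the control_EV group, with means of 8.54% ± 0.158 and 7.86% ± 1.19 (SD, n = 3). The highest library was 1.32-fold above the lowest, and the 3 SIX2_EV values lay inside the range of the controls. The share of reads with a mature name itself differed 10.4-fold between libraries, about as much as the family's share of all reads, so the family's share of all reads moved with the mature share of the library. In CPM on libraries scaled by TMM, which sets the scale so that most features differ little, the family summed to 19660, 18909 and 23416 CPM in the SIX2_EV group against 21776, 24877 and 24399 CPM in the control_EV group. These also overlapped.

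**Figure D1:**
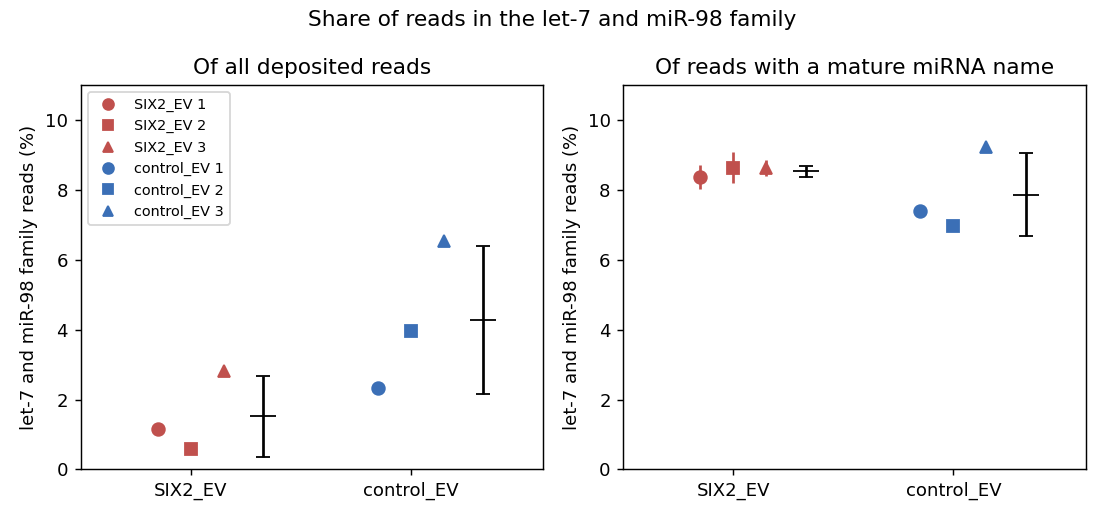
Share of reads in the let-7 and miR-98 family in each library (%), of all deposited reads (left) and of reads with a mature miRNA name (right). Colored points are libraries with 95% Wilson intervals, and black marks are group means with SD (n = 3); the left panel runs from 0.585% to 6.53%, the right panel from 6.98% to 9.21%.

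The second comparison was about the levels of single members. Levels are CPM per sequence, and since all members are 21 to 23 bases long no length scaling was applied. Differences in how well each sequence ligates to adapters were not tested. let-7f-5p was the most abundant, ahead of let-7a-5p, let-7i-5p and let-7g-5p, and these 4 sequences held 83.3% to 88.3% of family reads in the 6 libraries. As a named feature let-7f-5p ranked 6 by mean CPM among features with a mature name and a mouse hairpin. A middle group of let-7b-5p, let-7d-5p, the let-7j-named read, let-7c-5p and miR-98-5p followed between 208 and 986 CPM, and let-7e-5p stood lowest in the 5p arm.

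let-7f-5p, made from 2 hairpins, had 5993, 6127 and 8405 CPM in the SIX2_EV group against 8806, 10498 and 7381 CPM in the control_EV group. The groups overlapped through the third library of each. let-7a-5p, the founding sequence of the family, had 5191, 4501 and 5545 CPM in the SIX2_EV group against 5420.5, 6162 and 5746 CPM in the control_EV group, again with an overlap. let-7i-5p had 3096, 3029 and 3519 CPM in the SIX2_EV group against 2347, 2657 and 3768 CPM in the control_EV group. let-7g-5p, its closest relative here by substitutions (A17G and A19T from let-7g-5p to let-7i-5p), had 2105, 2223 and 2585 CPM in the SIX2_EV group against 2246, 2637 and 3942 CPM in the control_EV group. For both, the third control_EV library was the highest of all 6, and the groups overlapped. In every library let-7f-5p stood above let-7a-5p, and let-7i-5p stood above let-7g-5p except in the third control_EV library. Across the 6 libraries the ranges of let-7f-5p and let-7a-5p overlapped, as did those of let-7i-5p and let-7g-5p, but the lowest let-7a-5p value lay above the highest of let-7i-5p, and the lowest of let-7g-5p above the highest of let-7b-5p.

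In the middle group, let-7b-5p had 849, 986 and 880 CPM in the SIX2_EV group against 802, 688 and 790 CPM in the control_EV group. All 3 SIX2_EV values lay above all 3 controls, by a narrow margin. let-7d-5p, whose first base is an A instead of T (T1A against let-7a-5p), had 472, 528 and 821 CPM in the SIX2_EV group against 526, 484 and 968 CPM in the control_EV group, so the third library was the highest in either group. The let-7j-named read varied least of the middle group, with 529, 514 and 541 CPM in the SIX2_EV group against 479, 489 and 548 CPM in the control_EV group. let-7c-5p had 585, 472 and 420 CPM in the SIX2_EV group against 424, 395 and 322 CPM in the control_EV group. The third library was here the lowest of each group. RefSeq has this sequence in both the let-7c-1 and the let-7c-2 hairpin, but the table lists it at let-7c-1 alone. Where a sequence has several loci the table splits its reads over them, as for let-7a-5p, so the level and share of let-7c-5p may be understated. miR-98-5p had 491, 389 and 208 CPM in the SIX2_EV group against 330, 440 and 465 CPM in the control_EV group. The third SIX2_EV library was the lowest, and neighbours within this middle group overlapped in range.

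let-7e-5p had only 13, 5 and 0 reads in the SIX2_EV group against 7, 13 and 63 in the control_EV group, or 123, 69.5 and 0 against 25.4, 32.3 and 55.9 CPM. The table appears to list a sequence only from about 5 reads per library, since 31 of 2410 values above 0 (summed per sequence) were under 5. A 0 therefore means listed at 0. The order of its CPM values in SIX2_EV rests on few reads, as 5 reads were worth 69.5 CPM in the second SIX2_EV library and 4.4 CPM in the third control_EV library.

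**Figure D2:**
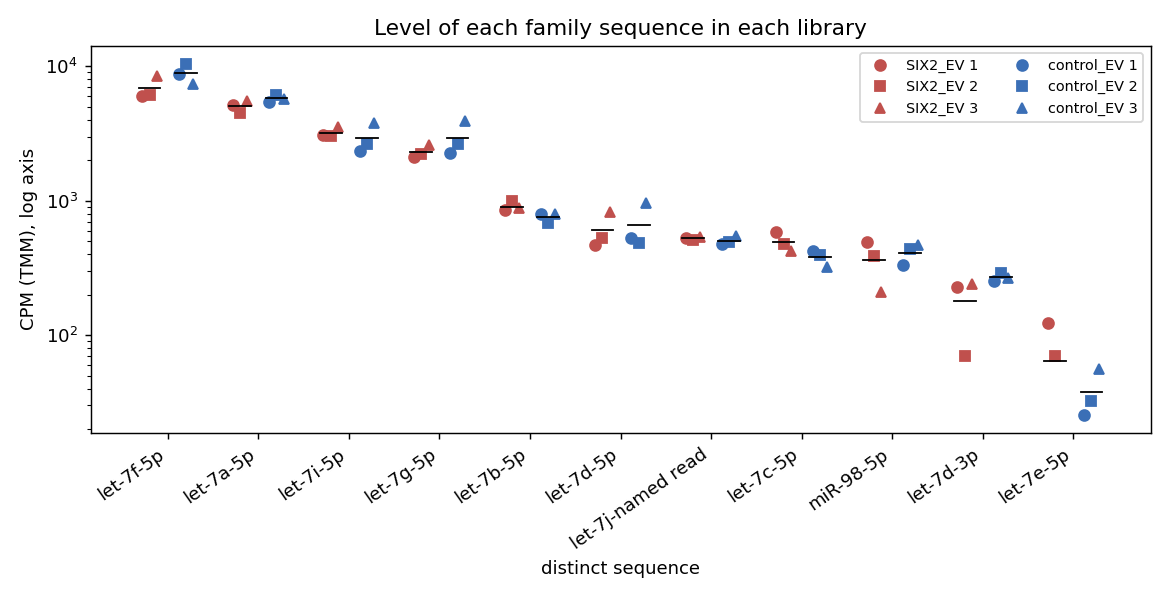
CPM (TMM scaling, log axis) of the 10 sequences of the 5p arm and of let-7d-3p in each library. Points are libraries, short lines are group means (n = 3); the value of let-7e-5p in the third SIX2_EV library is 0 and is not drawn. let-7f-5p reaches 10498 CPM, and let-7e-5p stays at or under 123 CPM.

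Across the whole table the groups were then compared with edgeR's quasi-likelihood test. The filter on low counts kept 319 of 756 features, among them 13 of the 19 family features, and p-values were adjusted over all 319. Of the 13, 0 passed an adjusted p of 0.05 and 0 had an unadjusted p under 0.05, where the whole table had 0 passing (0.0%) and 39 with an unadjusted p under 0.05. DESeq2 called 0 of the 13, against 6.27% of all tested features. The smallest unadjusted p in the family was 0.245, for let-7f-5p, whose log2 fold change was -0.38 (SE 0.29; edgeR adjusted p 0.650). let-7g-5p had -0.35 (SE 0.28, adjusted p 0.670 by edgeR), let-7a-5p -0.18 (SE 0.22) and let-7i-5p 0.14 (SE 0.26). let-7b-5p and let-7c-5p had 0.25 (SE 0.23) and 0.37 (SE 0.34), with adjusted p of 0.737 and 0.735 by edgeR. The let-7j-named read, let-7d-5p and miR-98-5p had 0.06 (SE 0.28), -0.12 (SE 0.41) and -0.19 (SE 0.45). let-7e-5p had 0.71 with an SE of 1.42, so its counts leave the size unsettled. The median over the 13 was -0.18 and over all 319 features -0.30. The 13 hold the let-7a-5p sequence under its own name and again under that of let-7c-5p. With features summed by sequence, 12 of the family were tested, with a median of -0.161 against -0.335 over all 308. A p that misses the threshold does not show that the levels were equal.

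These values depended on what the libraries were scaled to. With all deposited reads as library size, all 13 log2 fold changes were negative, from -1.88 to -0.96 (median -1.48, against -1.52 over all 319 features), and 0 passed. With reads of mature name as library size, 4 of 13 were negative, with a median of 0.14 against 0.03 over all features, and 0 passed. let-7f-5p had -1.56 (SE 0.81) in the first case and -0.05 (SE 0.24) in the second. let-7b-5p had -1.12 (SE 0.86) and 0.57 (SE 0.29), and let-7c-5p had -0.96 (SE 0.99) and 0.71 (SE 0.36). In each scaling the family's median stood beside that of all features, and 5 members that were positive with TMM were negative with all deposited reads.

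With TMM, the groups did not overlap for 1 of 13 tested features in the higher direction (let-7b-5p), where 5.96% of all tested features did so, and for 1 of 13 in the lower direction (let-7d-3p), where 16.9% did. With all deposited reads as library size, 1 of 13 was lower without overlap, miR-98-5p, against 28.8% of all features. With reads of mature name as library size, 2 of 13 were higher without overlap, let-7b-5p and let-7c-5p, against 9.4% of all features. For let-7b-5p this was 3609, 4499 and 3243 against 2724, 1930 and 2982 CPM of reads with a mature name. For let-7c-5p it was 2486, 2154 and 1547 against 1442, 1108 and 1216.

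**Figure D3:**
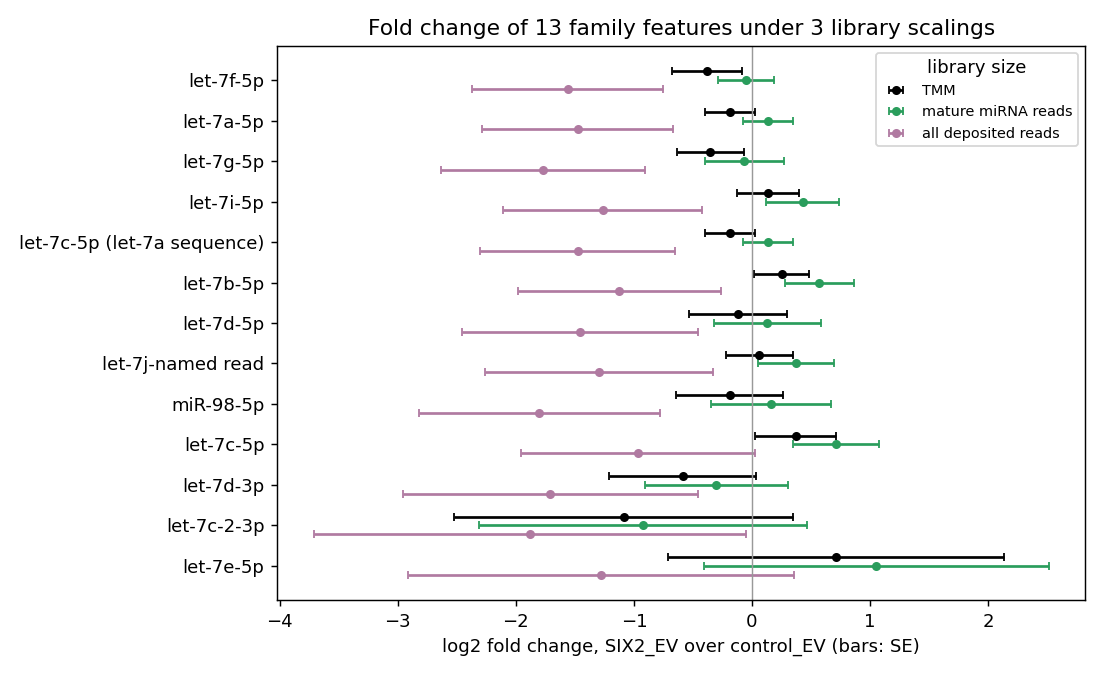
log2 fold change of SIX2_EV over control_EV with its SE for the 13 tested family features, under 3 choices of library size (TMM, reads with a mature name, all deposited reads). With all deposited reads the 13 values lie between -1.88 and -0.96; with TMM they lie between -1.09 and 0.71, and none passed the test in any of these scalings.

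The third comparison set the members against each other within the family, as shares of family reads, which do not depend on the scaling of the libraries. let-7f-5p took 30.5%, 32.4% and 35.9% of family reads in the SIX2_EV group against 40.4%, 42.2% and 30.3% in the control_EV group, or 32.9% ± 2.74 and 37.6% ± 6.45 (SD, n = 3). The third control_EV library lay below every SIX2_EV library, while the first and second lay above all of them. let-7a-5p was steady at 26.4%, 23.8% and 23.7% in the SIX2_EV group against 24.9%, 24.8% and 23.6% in the control_EV group. let-7i-5p took 15.7%, 16.0% and 15.03% in the SIX2_EV group against 10.8%, 10.7% and 15.4% in the control_EV group. let-7g-5p took 10.7%, 11.8% and 11.04% in the SIX2_EV group against 10.3%, 10.6% and 16.2% in the control_EV group. The third control_EV library thus held less let-7f-5p and more let-7i-5p and let-7g-5p than the other two controls.

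That library bears on each of these differences. For let-7f-5p the difference between group means was -4.70 percentage points, between -8.39 without control_EV replicate 3 and -2.42 without control_EV replicate 2, and -9.87 in replicates 1 and 2 alone. For let-7i-5p it was 3.30 percentage points, or 4.87 without control_EV replicate 3 and 5.15 in replicates 1 and 2 alone. For let-7g-5p the sign turned: it was -1.19 percentage points, but 0.71 without control_EV replicate 3 and 0.773 in replicates 1 and 2 alone. In replicates 1 and 2 alone, a choice made after the data were seen, the log2 fold change of let-7f-5p was -0.49 (SE 0.17, unadjusted p 0.0509, adjusted p 0.158 by edgeR) and that of let-7i-5p 0.48 (SE 0.16, unadjusted p 0.0389, adjusted p 0.140 by edgeR). Neither passed over all features. In that edgeR fit 96 of 301 features had an unadjusted p under 0.05, as did 3 of the 13 family features. These were let-7i-5p, let-7e-5p and let-7c-2-3p ending in T.

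Among the smaller members, let-7b-5p took 4.32%, 5.22% and 3.76% of family reads in the SIX2_EV group against 3.68%, 2.76% and 3.24% in the control_EV group. The let-7j-named read took 2.69%, 2.72% and 2.31% in the SIX2_EV group against 2.20%, 1.97% and 2.24% in the control_EV group. For both, each SIX2_EV library lay above each control_EV library, and the gap at the nearest pair was smaller than the SD of either group. Of the 18 sequences, the only other without overlap was let-7c-2-3p ending a base shorter. It was lower, at 0%, 0% and 0.039% in the SIX2_EV group against 0.167%, 0.1% and 0.087% in the control_EV group. Its control_EV levels were 36.3, 24.8 and 21.3 CPM. The listing limit of about 5 reads stood above them in the first and second SIX2_EV libraries (47.2 and 69.5 CPM). Those zeros would thus be listed at the control level too, and the third SIX2_EV value rests on 2 reads. Such shares were not computed for features outside the family. let-7c-5p had means of 2.42% ± 0.596 and 1.62% ± 0.316, let-7d-5p of 2.90% ± 0.561 and 2.78% ± 1.06, and miR-98-5p of 1.81% ± 0.832 and 1.73% ± 0.198 (SD, n = 3), and their groups overlapped. let-7e-5p reached at most 0.624% of family reads.

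**Figure D4:**
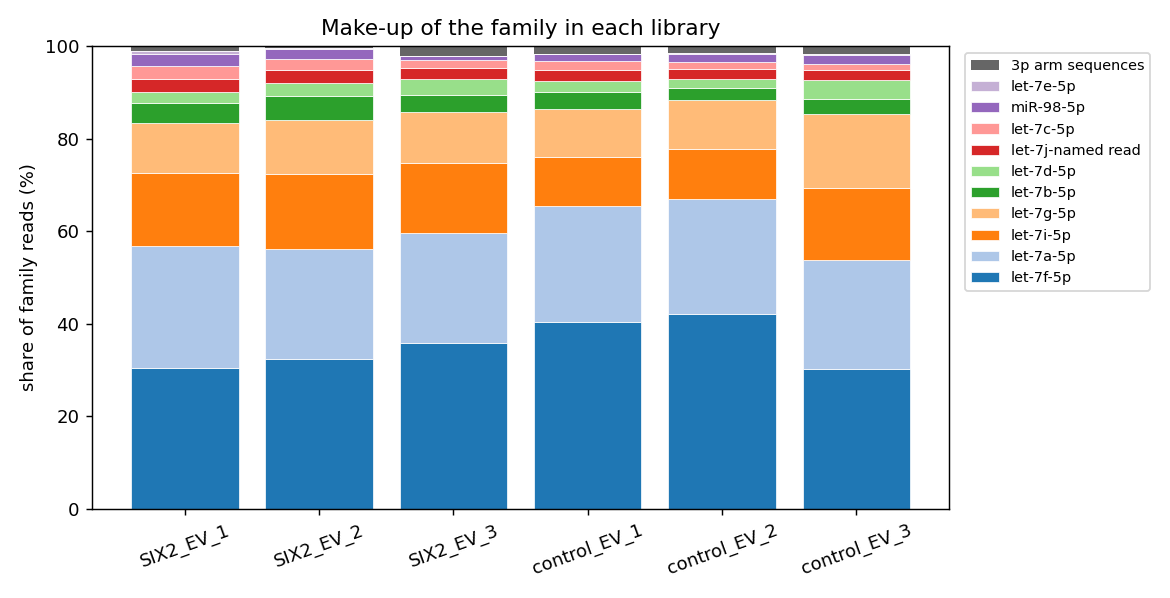
Share of family reads (%) taken by each sequence of the 5p arm and by the 8 features of the 3p arm together, as 1 stacked bar per library. let-7f-5p, at the bottom, runs from 30.3% to 42.2%, and let-7a-5p above it from 23.6% to 26.4%.

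The fourth comparison was between the arms of the hairpins. The 3p arm took 1.15%, 0.367% and 2.10% of family reads in the SIX2_EV group against 1.70%, 1.59% and 1.69% in the control_EV group, or 1.21% ± 0.868 and 1.66% ± 0.063 (SD, n = 3). The groups overlapped, and the difference of -0.45 percentage points was -0.03 without SIX2_EV replicate 2 and -0.90 without SIX2_EV replicate 3. Without let-7d-3p, the 3p share was 0%, 0% and 1.08% in the SIX2_EV group against 0.533%, 0.419% and 0.604% in the control_EV group. Rare 3p sequences under the listing limit of about 5 reads are mostly not counted, and the part of this limit in the difference was not tested. The sequences that carried most of the 3p reads, or that end in a base the hairpin lacks, were as follows. Capitals mark the seed in let-7d-3p and, in the other 3, the last base, a T that is not in the deposited hairpin.
let-7d-3p: cTATACGAcctgctgcctttct
let-7c-2-3p: ctatacaatctactgtctttcT
let-7b-3p: ctatacaacctactgccttccT
let-7f-2-3p: ctatacagtctactgtctttcT
In each of these 3 the substitution against the RefSeq sequence (for let-7f-2-3p, the hairpin) was C22T. They were 3 of the 8 features of the 3p arm, and the other 5 matched their hairpin to the last base. Whether the T was added to the RNA or arose in sequencing was not tested.

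let-7d gave the highest 3p share of the hairpins in every library. let-7d-3p had 24, 5 and 53 reads in the SIX2_EV group against 70, 117 and 300 in the control_EV group, which made 32.4% (Wilson 95% interval 22.9 to 43.7), 11.6% (5.07 to 24.5) and 22.6% (17.7 to 28.3) of let-7d reads in the SIX2_EV group against 32.6% (26.6 to 39.1), 37.5% (32.3 to 43.0) and 21.6% (19.5 to 23.8) in the control_EV group. The second SIX2_EV library was the lowest, on 5 reads of the 3p arm and 38 of the 5p arm, and the groups overlapped. Of the 8 features of the 3p arm, let-7d-3p held all 3p reads of the first and second SIX2_EV libraries. Its level was 227, 69.5 and 239 CPM in the SIX2_EV group against 254, 291 and 266 CPM in the control_EV group, with no overlap, and its log2 fold change was -0.59 (SE 0.62; edgeR adjusted p 0.756). Without SIX2_EV replicate 2, the library with 5 reads, it was -0.13, and it was -0.81 without SIX2_EV replicate 1.

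For the other hairpins the 3p arm was rare. let-7i-3p was at most 0.919% of let-7i reads, and let-7b-3p at most 2.5% of let-7b reads. The 3p arms of let-7f-1 and let-7f-2 together were at most 1.06% of let-7f reads. Both sequences of let-7c-2-3p, whose bases are shared by the let-7a-1 hairpin, were at most 1.71% when set against the let-7a-5p sequence. miR-98-3p was the exception in 1 library, the third of SIX2_EV, where its 13 reads stood beside 46 of miR-98-5p, or 22.03% of miR-98 reads (Wilson 95% interval 13.4 to 34.1). In the second control_EV library it made up 4.32%, in the third 1.32%, and in the other libraries it was listed at 0.

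Fewest 3p features were listed where the family had fewest reads. The first and second SIX2_EV libraries, with 2083 and 1361 family reads, listed 1 of 8. The third SIX2_EV library, with 5190, listed 7. The control_EV libraries, with 6002, 10017 and 27494, listed 4, 5 and 7. let-7c-2-3p ending in T was the only 3p feature besides let-7d-3p that the filter kept, with 0, 0 and 16 reads in the SIX2_EV group against 16, 18 and 79 in the control_EV group (log2 fold change -1.09, SE 1.44, adjusted p 0.827 by edgeR). That value rests on the third SIX2_EV library: it was -7.52 without SIX2_EV replicate 3, where the SIX2_EV libraries left are all at 0 and the fitted size depends on the prior count. It was -0.61 without SIX2_EV replicate 1, -0.64 without SIX2_EV replicate 2 and -2.67 with the replicate number as a block, and it passed in none of these fits. The 6 features that the filter did not keep were all from the 3p arm. let-7c-2-3p ending a base shorter had 0, 0 and 2 reads in the SIX2_EV group against 10, 10 and 24 in the control_EV group. let-7f-2-3p had 0, 0 and 14 against 0, 6 and 18, and miR-98-3p 0, 0 and 13 against 0, 8 and 7. let-7i-3p had 0, 0 and 0 against 6, 0 and 22, let-7b-3p 0, 0 and 5 against 0, 0 and 16, and let-7f-1-3p 0, 0 and 6 against 0, 0 and 0. The listing limit of about 5 reads stood at 47.2 and 69.5 CPM in the first and second SIX2_EV libraries, but at 22.6 CPM in the third and at 18.1, 12.4 and 4.4 CPM in the controls. Some zeros lay in libraries deep enough to list the level seen elsewhere. let-7f-1-3p had 27.1 CPM in the third SIX2_EV library and was listed at 0 in all 3 controls, and miR-98-3p had 58.7 CPM there and was listed at 0 in the first control.

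The let-7j-named read stayed in a narrow range relative to let-7i-5p, the member it equals up to its last base. Of both together it made up 14.6% (Wilson 95% interval 11.4 to 18.5), 14.5% (10.7 to 19.4) and 13.3% (11.3 to 15.7) in the SIX2_EV group against 16.9% (14.5 to 19.7), 15.5% (13.7 to 17.6) and 12.7% (11.8 to 13.7) in the control_EV group. The means were 14.1% ± 0.701 and 15.1% ± 2.17 (SD, n = 3), and the groups overlapped.

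**Figure D5:**
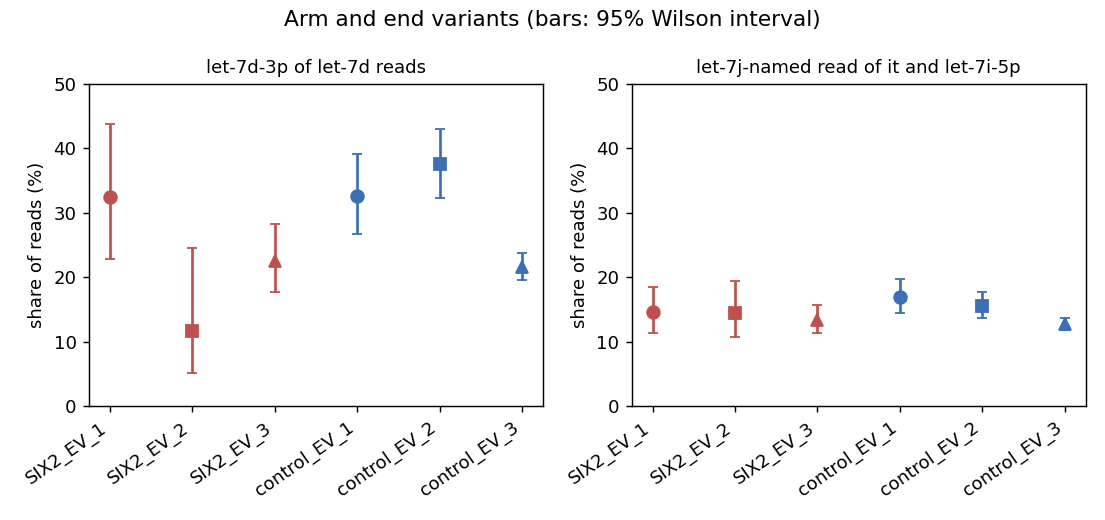
Left, let-7d-3p as a share of all let-7d reads (%); right, the let-7j-named read as a share of itself and let-7i-5p together (%). Points are libraries and bars are 95% Wilson intervals; the left panel runs from 11.6% to 37.5%, the right panel from 12.7% to 16.9%.

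The fifth comparison was with the miRNAs that share a locus with let-7 members. miR-99b and miR-125a flank let-7e within 0.08 and 0.35 kb, and miR-99a and miR-100 lie 0.64 and 5.2 kb before let-7c-1 and let-7a-2, with miR-125b-2 and miR-125b-1 46.5 and 45.07 kb after them. Of 11 mature miRNA names of these loci fixed for the comparison, 7 were listed and 4 tested, and 0 passed. The let-7e locus was low throughout: miR-99b-5p had 8, 0 and 6 reads in the SIX2_EV group against 20, 42 and 74 in the control_EV group, and miR-125a-5p had 6, 0 and 5 against 0, 17 and 60, beside the similarly few reads of let-7e-5p. miR-99a-5p and miR-100-5p were listed with the same sequence and equal counts, each at 727, 556 and 487 CPM in the SIX2_EV group against 254, 432 and 923 CPM in the control_EV group (log2 fold change 0.13, SE 0.53, adjusted p 0.943 by edgeR). The miR-100-5p row was named with a change of A to T at base 16, and the miR-99a-5p row with no substitution. The sequence is thus that of miR-99a-5p, split over both names, and no unchanged miR-100-5p was listed. Each value is therefore only a part of the level of that sequence. The first control_EV library was the lowest and the third the highest of all 6. miR-125b-5p had 179, 0 and 76.7 CPM in the SIX2_EV group against 98.0, 194 and 574 CPM in the control_EV group, so the groups overlapped here too. That row was named with a change of T to G at base 5, inside the seed, and no unchanged miR-125b-5p was listed. The miR-125b-2-3p row was named with a change of C to T at base 11. miR-125b-2-3p, from the other arm and not tested, had 0, 0 and 0 reads in the SIX2_EV group against 10, 11 and 40 in the control_EV group, with no overlap. Its control_EV levels were 36.3, 27.3 and 35.5 CPM. The listing limit of about 5 reads stood above them in the first and second SIX2_EV libraries (47.2 and 69.5 CPM), but below them in the third (22.6 CPM). Of all tested features, 16.9% were lower in SIX2_EV without overlap. miR-125b-1-3p was listed in the third control_EV library alone, at 5 reads.

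Last, the features most like the summed family in their pattern over the 6 libraries were sought among 116 features outside it with a mature name, a mouse hairpin, a mean of at least 100 CPM and no library at 0. The measure was the root mean square difference of log2 CPM after each was centred on its own mean. The closest was miR-652-3p at 0.105, with 481, 486 and 550 CPM in the SIX2_EV group against 562, 519 and 608 CPM in the control_EV group. miR-155-5p, a miRNA induced by inflammatory signals, miR-103-3p, miR-17-1-3p and miR-186-5p followed between 0.12 and 0.153, where the median over the 116 was 0.423. The miR-17-1-3p row was named with changes of A to G at base 11 and of G to A at base 21. As these are 6 libraries on 1 shared scaling, the likeness is a description only.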

How the data were processed

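Small RNA was measured in 3 SIX2_EV and 3 control_EV libraries. Per the labels' protocols, the authors removed adapter dimers, junk and low-complexity reads, common RNA families and repeats with ACGT101-miR. Build, miRBase release and mapping were not given in the sources used here. Estimated counts deposited by the authors, split over loci, were summed per name and sequence (89.8% of values above 0 were whole within 0.05) and rounded. The authors' deposited normalized signal is the count scaled by a library factor of 0.227 to 3.40 and served as an alternative scaling only.

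Groups were compared across all features with edgeR 4.0.16 (R 4.3.3; TMM, filterByExpr, quasi-likelihood test, no block, Benjamini-Hochberg adjustment); DESeq2 1.42.0 and limma 3.58.1 were alternatives. The SE given with an edgeR log2 fold change is the size of that fold change divided by the square root of the test's F statistic. CPM (counts scaled to the TMM effective library) were used for levels. The edgeR script was tested on simulated data. The family, lists and naming rule (every family feature, 11 locus partners, the 5 most alike features) were chosen with earlier results of these data known. Scaling by the authors' signal and fits on replicates 1 and 2 alone were added after the data were seen. Sequences and loci names are from the table and RefSeq GRCm38.p6, host genes from GENCODE M21; 13 of 19 features equalled a RefSeq mature sequence. Depth was 179621 to 421279 reads per library, and 5 reads were worth 4.4 to 69.5 CPM.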

Additional observations from a re-analysis of the deposited data

How the results depend on the processing

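Of the family, 0 features passed under every alternative run: total counts, DESeq2 size factors, mature reads or the authors' signal as scaling, DESeq2, limma-voom, no filter, sums by sequence or by name, replicates 1 and 2 alone, and each library left out. With the replicate number as a block, 0 passed as well (family median -0.19), and 45 of all features had an unadjusted p under 0.05, against 39 without the block. The numbers were not taken as pairs, since same-numbered libraries deviated with correlations of 0.19, 0.05 and 0.62, and the first and second SIX2_EV libraries correlated best with another number. DESeq2 called 20 of 319 features where edgeR called 0. In replicates 1 and 2 alone 3 of 13 members had an unadjusted p under 0.05, as did 96 of 301 features. The difference in family share was -2.75 percentage points of all deposited reads and 0.673 of mature-named reads, so it turned with the denominator. Some log2 fold changes, none past the threshold, changed sign. With total counts the let-7j-named read was at -1.30, let-7b-5p at -1.12, let-7c-5p at -0.96, let-7e-5p at -1.28 and let-7i-5p at -1.27. With mature reads as library size let-7a-5p was at 0.14 (0.13 for its rows named let-7c-5p), let-7d-5p at 0.13 and miR-98-5p at 0.16. let-7d-5p was at 0.005 with DESeq2 size factors in edgeR, 0.008 with DESeq2, 0.067 with limma-voom and 0.16 in replicates 1 and 2 alone, where let-7g-5p was at 0.01 and miR-98-5p at 0.39. The let-7j-named read was at -0.019 with no filter, let-7e-5p at -0.31 with limma-voom, and let-7c-5p at -0.047 when summed by name, which joins it to reads of the let-7a-5p sequence. With 1 library left out, let-7d-5p ranged from -0.32 to 0.40, let-7e-5p from -0.26 to 1.48, let-7g-5p from -0.51 to 0.064 and miR-98-5p from -0.47 to 0.25. let-7d-3p ranged from -0.81 to -0.13 and let-7c-2-3p from -7.52 to -0.61 without a change of sign, and the let-7g-5p share difference from -2.21 to 0.71 percentage points. The causes were not tested. The first and second SIX2_EV libraries limit the depth, with 1361 to 2083 family reads.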
